A study of Mus musculus with 12 samples.

Results

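Interleukin 6 family signalling was followed through 7 genes, Il6, Lif, Il6ra, Il6st, Osmr, Stat3 and Socs3, out of the 32285 genes listed for 12 libraries of single mouse lymph node cells. All 7 were found by symbol and had UMIs, the molecular tags that each stand for 1 captured RNA molecule. The members were chosen by a value of these data: Il6 was higher at day 3 after oxazolone than after vehicle in the cells of high endothelial venules (HEV), the vessels through which lymphocytes enter a node. That contrast is therefore described without a test, and the results turn on which cells held each gene, how receptors and response genes were spread over cell types, and what the other contrasts gave.

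Interleukin 6 (Il6) is a secreted cytokine made by stromal, endothelial and myeloid cells during inflammation, and leukaemia inhibitory factor (Lif) is a related ligand. Il6 binds its own receptor subunit (Il6ra), and the pair engages gp130 (Il6st), the signalling subunit shared by the family. Oncostatin M receptor (Osmr) also pairs with gp130. Cells without Il6ra can respond through soluble Il6ra that other cells release. Receptor-bound JAK kinases phosphorylate STAT3 (Stat3), which induces, among others, Socs3, a protein that binds gp130 and limits further signalling.

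The mice were C57BL/6, 7 to 10 weeks old, and carried the alleles labelled ATG12 fl/fl together with CDH5 CreER, either negative or positive. Cdh5 drives this tamoxifen-dependent recombinase in endothelial cells of blood and lymph vessels, and Atg12 is needed to build autophagosomes. All mice, controls included, received 5 tamoxifen treatments. Groups had oxazolone, a contact sensitiser, at 4% on the abdomen for 3 or 7 days, or its acetone and olive oil solvent as vehicle. Nodes were digested with enzymes and split with CD45 beads into an unbound CD31 fraction, labelled endothelial cells, and a bound CD45 fraction, labelled immune cells. Each combination of fraction, treatment and Cre label is 1 library, and the labels do not say how many mice went into it. The CD31 and CD45 libraries of 1 treatment and Cre label may come from the same nodes, so the fractions are not independent evidence. Values are always listed as vehicle Cre-negative, vehicle Cre-positive, day 3 Cre-negative, day 3 Cre-positive, day 7 Cre-negative and day 7 Cre-positive.

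The 12 libraries held 36724887 to 76186801 UMIs and gave 89054 cells, 5698 to 10553 per library. The most cell barcodes shared by a pair of libraries was 28, and the largest share of the smaller library, in another pair, was 0.384%. The vehicle Cre-positive libraries stood apart: Xist, the RNA of the inactive X chromosome, was detected in 0.0883% (CD31) and 0.0503% (CD45) of their cells and in 29.8% to 54.7% of cells elsewhere. Y-linked genes were detected in 68.2% and 73.4% of their cells and in 19.4% to 45.8% of cells elsewhere. The sex mix of this group therefore differed from the others, and its part in contrasts that use these libraries was not tested. The CD31 day 3 Cre-positive library also stood apart, with 2348 of its 10553 cells (22.2%) in an unnamed cluster of few UMIs against 19 to 619 cells in the other CD31 libraries. In that library and in CD31 vehicle Cre-negative, which had the 619, the removed doublets had a lower median depth than the cells kept (2203 against 3433 and 3932.5 against 4325 UMIs). Atg12, the gene targeted by the Cre, was not lower in the Cre-positive library of any pair in the 7 classes tested below, except in myeloid-like cells at day 3 (32.9 against 37.9 CPM) and day 7 (31.6 against 33.3 CPM). HEV-like cells had 45.7, 54.6, 43.2, 51.0, 44.2 and 45.5 CPM (the gene's UMIs over all UMIs of the class in that library, on the usual CPM scale). Tags at the 3′ end need not cover the deleted part, so this does not check the deletion. The CD45 label did not hold for all cells: 8615 cells of the CD45 libraries were fibroblast and mural-like (stroma, named from fibroblast or pericyte markers), with 1133 to 1928 per library. Among them a cluster of 2422 cells, led by Cxcl13, scored highest for pericyte markers. Its leading genes also held Fabp7, Mfge8, Ccl19, Acta2 and Tagln, and its exact cell type was not settled. The CD31 libraries held 5444 T cell-like and 6025 B cell-like cells. Cell classes were rebuilt here from marker genes, and the 2907 HEV-like cells formed 1 cluster, with summed HEV markers of 14312 to 82510 CPM per library against 713.1 to 1734 CPM in other blood endothelial-like cells.

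In the GENCODE M21 annotation of build GRCm38, Il6 lies on chromosome 5 from 30013114 to 30019981 (plus strand) and Socs3 on chromosome 11 from 117966079 to 117970047 (minus strand). Lif lies on chromosome 11 from 4257557 to 4272514 (plus) and Stat3 on the same chromosome from 100885098 to 100939540 (minus). Il6ra lies on chromosome 3 from 89864059 to 89913196 (minus), Il6st on chromosome 13 from 112464070 to 112510086 (plus) and Osmr on chromosome 15 from 6813577 to 6874969 (minus). All are annotated as protein coding.

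The stretches before the starts of Il6 and Socs3 are shown because the Il6 level chose the members and Socs3 is the STAT3 feedback gene. Both are the 250 bases before the RefSeq start on build GRCm38.p6, written 5′ to 3′ on the gene's strand, at chr5:30012864-30013113 (plus) and chr11:117969367-117969616 (minus). The RefSeq start of Socs3 lies inside the GENCODE span of the gene. Capitals mark motif matches on either strand.
Il6 upstream: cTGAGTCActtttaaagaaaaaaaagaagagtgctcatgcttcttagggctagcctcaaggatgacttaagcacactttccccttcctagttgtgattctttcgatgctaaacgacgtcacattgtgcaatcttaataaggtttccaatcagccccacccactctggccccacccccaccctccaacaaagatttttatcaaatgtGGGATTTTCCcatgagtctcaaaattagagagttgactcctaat
Socs3 upstream: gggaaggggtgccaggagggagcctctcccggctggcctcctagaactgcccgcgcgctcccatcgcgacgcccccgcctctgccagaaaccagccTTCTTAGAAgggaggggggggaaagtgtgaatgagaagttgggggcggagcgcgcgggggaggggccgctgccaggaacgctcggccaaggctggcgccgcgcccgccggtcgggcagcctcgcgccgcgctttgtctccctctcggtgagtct
The motifs searched in the 300 bases from 250 before to 50 after each start were the STAT motif TTCNNNGAA, the AP-1 motif TGANTCA and the NF-kB consensus. The Il6 capitals are an AP-1 match, TGAGTCA, at -249 to -243 from the start, and an NF-kB match at -44 to -35. The Socs3 capitals are a STAT match, TTCTTAGAA, at -154 to -146. Of 32851 RefSeq promoters of this length, 8.30% held the STAT motif, 7.81% the AP-1 motif and 4.51% the NF-kB motif. Lif and Osmr had 1 AP-1 match each, and Il6ra, Il6st and Stat3 had no match to these letters in this window. A match describes letters and is not a measured binding site.

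Il6 RNA came from few populations. In the CD31 libraries 2448 Il6 UMIs were counted, of which HEV-like cells held 30.6% while making up 6.25% of cells. A second blood endothelial-like cluster led by Nav3 held 27.5% from 13.02% of cells, and an unnamed cluster of 119 cells with mixed granulocyte genes held 10.7% from 0.256% of cells. In the CD45 libraries 3215 Il6 UMIs were counted, and the fibroblast and mural-like clusters held most of them: those led by Mgp (a matrix protein) held 46.2%, by Igfbp3 25.8%, by Cxcl13 (a B cell attractant) 13.5% and by Pi16 9.30%. Lymphocytes held almost none. The mean Il6 level over the 6 CD45 libraries was 0.155 ± 0.204 CPM (SD, n = 6) in T cell-like and 0.172 ± 0.243 CPM in B cell-like cells. In the CD31 libraries, B cell-like cells held 0 to 0.715 CPM of Il6 in 5 libraries and 7.53 CPM (27 UMIs) at day 3 Cre-positive.

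**Figure D1:**
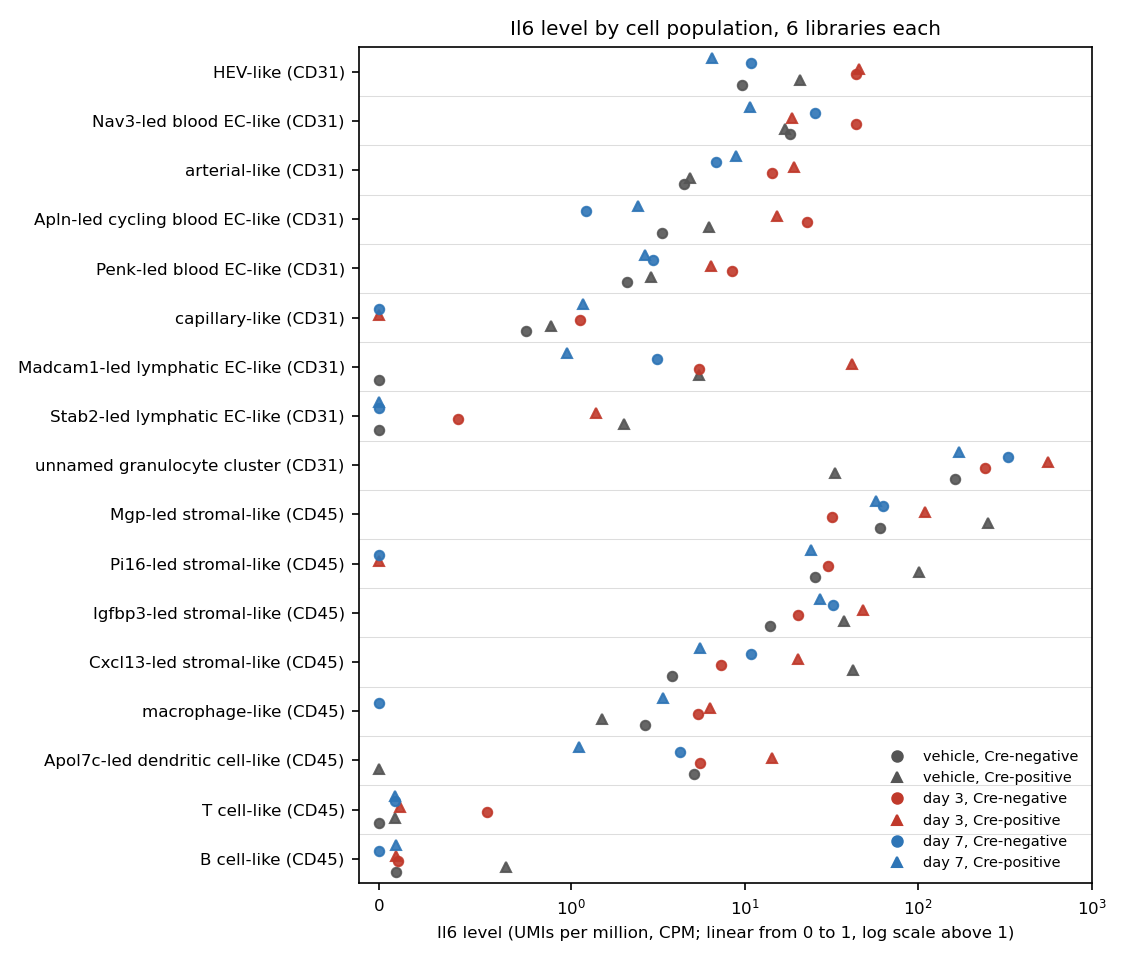
Il6 level (CPM, linear from 0 to 1 and on a log scale above 1) by cell population, with 1 point per library, colours for treatment and circles or triangles for Cre-negative or Cre-positive. Among the populations shown, the granulocyte cluster of the CD31 libraries and the Mgp-led cluster reach the highest levels. T cell-like and B cell-like cells of the CD45 libraries lie below 1 CPM.

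Over the CD31 libraries the order of mean Il6 levels was the granulocyte cluster (250.1 ± 180.5 CPM, SD, n = 6), the fibroblast and mural-like cluster (32.6 ± 21.4), HEV-like cells (22.9 ± 17.7), the Nav3-led cluster (22.4 ± 11.6) and arterial-like cells (9.74 ± 5.83). The ranges of each neighbouring pair in this order overlapped. The 6 libraries differ in treatment, so these SDs include the treatment. Capillary-like cells, the most numerous blood endothelial-like cluster, had at most 1.16 CPM of Il6 in any library, with 14 UMIs in 6700 cells. Over the CD45 libraries the Mgp-led cluster had 95.5 ± 80.6 CPM and the Pi16-led cluster 30.2 ± 37.1 CPM, again with overlapping ranges. These are not a full ranking. An unnamed granulocyte cluster of the CD45 libraries held 34 Il6 UMIs in 94 cells, which was 1.06% of Il6 UMIs from 0.221% of cells.

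In HEV-like cells Il6 was at 9.68, 20.9, 44.0, 45.7, 10.8 and 6.46 CPM. Both day 3 libraries were above all 4 others. These levels rest on 32, 72, 256, 290, 81 and 19 UMIs in 346, 366, 520, 711, 697 and 267 cells. The exact Poisson 95% intervals were 38.8 to 49.8 and 40.6 to 51.2 CPM at day 3, against 6.62 to 13.7 and 16.4 to 26.3 CPM at vehicle. Such intervals cover counting error only, not differences between mice. The log2 ratio of day 3 to vehicle was 2.19 (95% interval 1.65 to 2.76) in the Cre-negative pair and 1.13 (0.75 to 1.52) in the Cre-positive pair, which uses the vehicle library that stood apart. At day 7 the log2 ratio to vehicle was 0.16 (-0.45 to 0.80) in the Cre-negative pair and -1.70 (-2.51 to -0.95) in the Cre-positive pair. These are the values that chose the members.

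More HEV-like cells held an Il6 UMI at day 3. The shares were 5.49%, 5.46%, 14.6%, 15.5%, 3.44% and 4.49% of cells. As a background, T cell-like cells from those libraries had an Il6 UMI in 0 or 1 cell per library (at most 0.0888%), at median depths of 4599 to 5804 UMIs against 7862 to 10610 in HEV-like cells. Outside day 3 the Il6 UMIs sat in few cells: the 5 HEV-like cells with the most Il6 held 56.2%, 62.5%, 25.0%, 25.5%, 58.0% and 63.2% of each library's HEV-like Il6 UMIs. Thinned to 1000 UMIs per cell, Il6 gave 24 UMIs at day 3 against 2 at vehicle in the Cre-negative pair (log2 ratio 3.00). In the Cre-positive pair it gave 40 against 13 (0.66, interval -0.27 to 1.69), and this interval covers 0.

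Other measures that moved across the same HEV-like sums are given beside Il6, and their part in its level was not tested. The 9 fibroblast markers summed to 1.72 to 3.78 CPM in every library, and the 6 neutrophil markers summed to 26.3, 44.2, 1.38, 8.19, 0.533 and 1.36 CPM. Neither list was highest at day 3. The 5 mast cell markers summed to 126.4, 92.4, 130.8, 100.9, 101.2 and 105.0 CPM, highest at day 3 Cre-negative. The 11 genes of dissociation and stress response, a sign of handling, summed to 8651, 7737, 5372, 4687, 7859 and 5711 CPM, lowest in both day 3 libraries. The genes of Il6 induction and mRNA control (4499, 5981, 2342, 2388, 5017 and 3173 CPM) were lowest there too. The 5 cycling markers summed to 79.5, 93.8, 282.9, 303.3, 54.6 and 132.2 CPM, highest in the day 3 libraries. The 7 arterial markers (68.7, 65.6, 87.6, 103.6, 69.4 and 69.0 CPM) were also highest there, and pericyte markers (30.2, 162.9, 15.5, 20.9, 55.4 and 38.7 CPM) were lowest there. The feedback genes Socs1, Cish, Pias3 and Ptpn2 summed to 77.7, 85.7, 101.0, 92.2, 75.3 and 71.7 CPM, highest in both day 3 libraries. Pan blood endothelial markers (7005, 7387, 6462, 6312, 6854 and 7322 CPM) were lowest in both. The 9 other family ligands (5.75, 5.52, 3.44, 3.15, 3.73 and 4.76 CPM) were lowest in both too. Zfp36, which helps degrade cytokine mRNAs including Il6, was at 1129, 1261, 308.7, 322.5, 1097 and 626.6 CPM in these cells, lowest in both day 3 libraries.

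**Figure D2:**
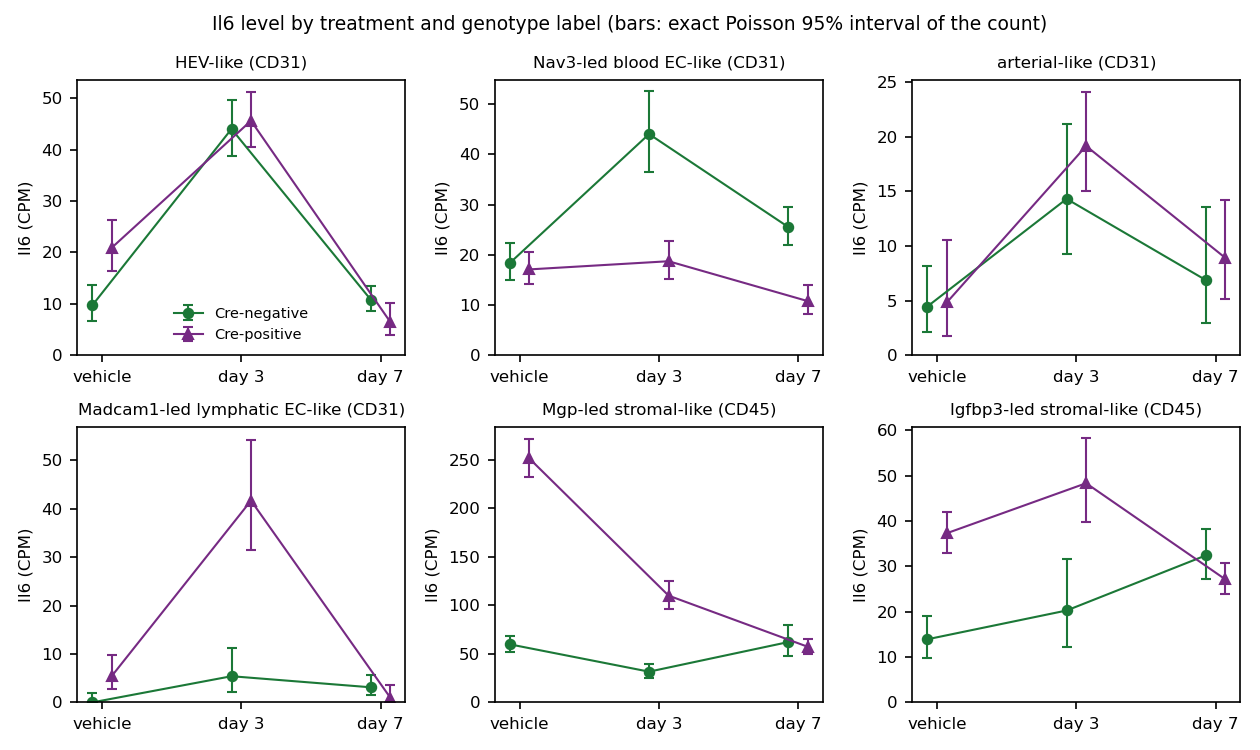
Il6 level (CPM) by treatment in 6 populations, with Cre-negative as green circles, Cre-positive as purple triangles and exact Poisson 95% intervals as bars. In HEV-like cells both Cre labels peak at day 3 (44.0 and 45.7 CPM), while the Mgp-led stromal cluster is highest in the vehicle Cre-positive library (251.6 CPM).

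Arterial-like, Apln-led and Penk-led blood endothelial-like cells also had both day 3 libraries on top for Il6, while in the Nav3-led cluster the day 3 libraries differed. There Il6 was at 18.3, 17.1, 44.0, 18.7, 25.5 and 10.8 CPM, so the day 3 Cre-positive library lay below the day 7 Cre-negative one. Arterial-like cells had 4.45, 4.83, 14.3, 19.1, 6.86 and 8.89 CPM, and both day 3 libraries were above the rest. The cycling cluster led by Apln, a tip cell gene, had 3.31, 6.26, 22.8, 15.2, 1.21 and 2.43 CPM. The Penk-led cluster had 2.10, 2.86, 8.41, 6.403, 2.95 and 2.66 CPM. In the last 3 clusters the day 3 and other libraries did not overlap, on 1 to 89 UMIs of Il6 per library.

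Among lymphatic endothelial-like cells, the Il6 of the Madcam1-led cluster came mostly from 1 library, with 0, 5.43, 5.41, 41.7, 3.12 and 0.98 CPM. The high value is day 3 Cre-positive (56 UMIs in 133 cells), and the Cre-negative library of the same day was no higher than vehicle Cre-positive. The Stab2-led cluster had at most 2.02 CPM. The granulocyte cluster of the CD31 libraries had 162.6, 33.1, 241.4, 559.1, 331.5 and 172.8 CPM of Il6 from 5 to 33 cells per library, lowest at vehicle within each Cre label, while day 3 and day 7 were in opposite order in the Cre labels.

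Stromal Il6 had another order than endothelial Il6. In the Mgp-led cluster of the CD45 libraries Il6 was at 59.9, 251.6, 31.7, 110.1, 62.2 and 57.3 CPM, highest in the vehicle Cre-positive library. The Pi16-led cluster had 25.5, 101.0, 30.2, 0, 0 and 24.2 CPM, with 0 UMIs in 47 and 35 cells. The Igfbp3-led cluster had 13.9, 37.3, 20.3, 48.4, 32.4 and 27.1 CPM, and the Cxcl13-led cluster 3.82, 42.0, 7.32, 20.3, 10.9 and 5.51 CPM. In the vehicle and day 3 pairs the Cre-positive library was higher in the Mgp-led, Igfbp3-led and Cxcl13-led clusters. The vehicle Cre-positive library is 1 of those that stood apart. The dissociation genes of these stromal clusters together had the same order, at 5841 and 10489 CPM at vehicle and 2240 and 4772 CPM at day 3, against 8606 and 6147 CPM at day 7, and their part in the Il6 values was not tested. The few stromal cells of the CD31 libraries (25 to 53 per library) had 10.9, 56.7, 62.1, 25.2, 17.8 and 22.8 CPM of Il6.

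Lif was scarce. Only 405 Lif UMIs were counted in the CD31 libraries and 611 in the CD45 libraries. HEV-like cells held 2 of them, both in the day 3 Cre-positive library (0.315 CPM), and capillary-like cells held 0 in 6700 cells. The lymphatic endothelial-like clusters led the CD31 order, with 1.52 to 11.9 CPM of Lif in the Madcam1-led and 4.08 to 9.82 CPM in the Stab2-led cluster. Lymphocytes also held Lif. In the CD31 libraries an unnamed cycling lymphocyte cluster held 17.5% of Lif UMIs from 1.47% of cells, and T cell-like cells held 13.8%. The Stab2-led cluster held 32.3% and the Madcam1-led cluster 16.5%. In the CD45 libraries the cycling lymphocyte cluster and T cell-like cells held 12.4% each. In the CD45 libraries the Igfbp3-led stromal cluster held the most Lif UMIs, 171 (28.0%), at a mean of 5.03 ± 2.93 CPM. The Mgp-led cluster had a mean over libraries of 6.67 ± 1.65 CPM (SD, n = 6) and the Pi16-led cluster 5.08 ± 4.84 CPM of Lif, with overlapping ranges. Of the other family ligands, Osm, which signals through Osmr, was measured mainly in myeloid-like cells (macrophages, dendritic cells and granulocytes), at 16.7, 9.26, 24.3, 52.8, 4.66 and 14.5 CPM.

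Receptor subunits were split between cell types. Il6ra, the subunit that binds Il6, was read mostly in leukocytes: T cell-like cells held 53.8% of its UMIs in the CD31 libraries and 52.8% in the CD45 libraries. The highest mean level was in macrophage-like cells of the CD45 libraries, 164.8 ± 29.5 CPM (SD, n = 6, range 133.9 to 206.4), above T cell-like cells (104 ± 9.66, range 94.5 to 122.1) with no overlap. Pi16-led stromal cells reached 58.0 to 151.7 CPM of Il6ra and overlapped T cell-like cells. HEV-like cells had 1.51, 2.61, 1.20, 2.68, 2.67 and 2.72 CPM of Il6ra, on 66 UMIs in all, and the other endothelial-like clusters had at most 8.85 CPM in any library. NK cell-like cells had no Il6ra UMI in either fraction.

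Il6st, which encodes gp130, was highest in endothelial-like cells of the CD31 libraries. Stab2-led lymphatic endothelial-like cells had 737.2 ± 216.6 CPM (SD, n = 6, range 493 to 1014) and HEV-like cells 566.9 ± 190.5 CPM, and these overlapped. HEV-like cells had 547, 858, 417, 340, 712 and 527 CPM of Il6st, so both day 3 libraries were below the other 4. The Madcam1-led cluster had 271 to 387 CPM of Il6st and the Nav3-led cluster 143 to 229 CPM, which did not overlap. T cell-like cells of the CD45 libraries had 148 to 198 CPM and B cell-like cells 27.5 to 41.6 CPM.

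Osmr was read in endothelial-like and stromal cells and was near 0 in leukocytes. In HEV-like cells it was at 187, 224, 154, 129, 193 and 147 CPM. The Nav3-led cluster had 157 to 223 CPM of Osmr, arterial-like cells 153 to 205 CPM and Igfbp3-led stromal cells 172 to 252 CPM. T cell-like cells of the CD45 libraries had 0.339 to 0.845 CPM, and B cell-like cells 0.268 to 0.806 CPM. Of the other receptors listed, Lifr, the partner of gp130 for Lif, was at 332, 419, 294, 226, 366 and 268 CPM in HEV-like cells. Il11ra1, the interleukin 11 receptor, was at 414, 440, 529, 524, 462 and 419 CPM in fibroblast and mural-like cells of the CD45 libraries.

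**Figure D3:**
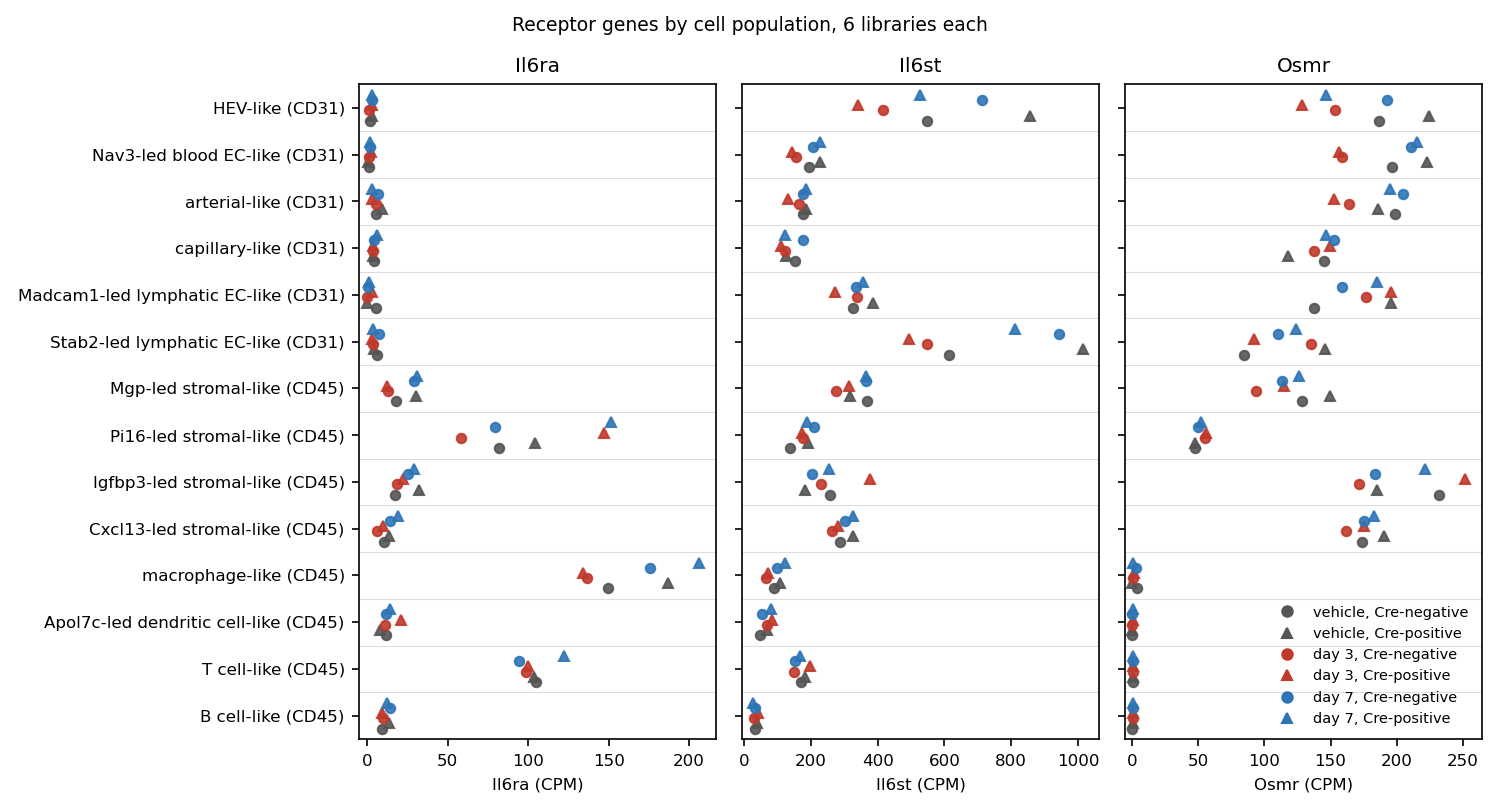
Levels of Il6ra, Il6st and Osmr (CPM, linear axes) by cell population, with 1 point per library, colours for treatment and circles or triangles for Cre-negative or Cre-positive. Il6ra is highest in macrophage-like, T cell-like and Pi16-led cells, Il6st in Stab2-led and HEV-like cells, and Osmr is near 0 in the leukocyte populations.

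Stat3 was read in every population. The Madcam1-led lymphatic cluster had the highest level in the CD31 libraries, 413.0 ± 87.6 CPM (SD, n = 6, range 317 to 579), above the Stab2-led cluster (218 to 313) with no overlap. HEV-like cells had 258, 290, 251, 210, 268 and 229 CPM of Stat3. The kinase Jak1 was at 774, 873, 889, 799, 741 and 650 CPM in HEV-like cells and Jak2 at 147, 233, 187, 164, 176 and 121 CPM. Jak1 was lowest in both day 7 libraries, and the treatments overlapped for Jak2.

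In the CD31 libraries Socs3 was highest in 2 endothelial populations. HEV-like cells held 38.1% of its UMIs in the CD31 libraries and had 343.4 ± 84.3 CPM (SD, n = 6), and Madcam1-led lymphatic cells had 341.0 ± 111.6 CPM with an overlapping range (209.5 to 541.2). In the CD45 libraries an unnamed cluster of 180 cells with endothelial and epithelial genes had 384.1 ± 308 CPM of Socs3 (35.0 to 911). Capillary-like cells had 22.9 to 43.6 CPM. In HEV-like cells Socs3 was at 426, 352, 435, 295, 342 and 210 CPM, so unlike Il6 it was not highest in both day 3 libraries. The Cre-positive library was lower than the Cre-negative one at each of the 3 treatments, with log2 ratios of -0.27 (-0.39 to -0.16) at vehicle, -0.56 (-0.65 to -0.48) at day 3 and -0.70 (-0.83 to -0.57) at day 7, all intervals covering counting error only. The summed HEV markers were also lower in the Cre-positive library of each pair (28989, 24946, 26167, 14312, 82510 and 17655 CPM), and their part in the Socs3 values was not tested.

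Socs3 was highest at day 3 in B cell-like, T cell-like and macrophage-like cells. B cell-like cells had 18.4, 13.2, 50.7, 48.1, 11.8 and 13.1 CPM in the CD45 libraries and 21.6, 10.4, 43.6, 48.0, 14.2 and 11.3 CPM in the CD31 libraries. T cell-like cells of the CD45 libraries had 31.5, 29.7, 51.3, 43.4, 27.0 and 28.8 CPM, and those of the CD31 libraries 35.5, 33.0, 44.4, 48.0, 29.7 and 23.1 CPM. In both cell types and both fractions, the day 3 libraries were above the other 4. The B cell-like cells of the CD45 libraries (15928 in all) join several clusters in shares that differ by library. The cluster led by Gm19951 (4850 cells) held more cells in each day 3 library than in any other CD45 library. Its part in the B cell-like Socs3 values was not tested. Macrophage-like cells of the CD45 libraries had 53.2, 32.9, 102.0, 99.0, 83.4 and 27.2 CPM of Socs3 and those of the CD31 libraries 25.9, 13.6, 68.9, 108.1, 15.1 and 19.4 CPM, also without overlap. The treatments overlapped in NK cell-like cells (61.7, 37.7, 45.0, 77.4, 50.9 and 35.5 CPM in the CD45 libraries) and in the Apol7c-led and Xcr1-led dendritic cell-like clusters, and plasmacytoid dendritic cell-like cells of the CD45 libraries were at 60.3 and 62.5 CPM at day 3 against at most 59.1 CPM. Thinned to 1000 UMIs per cell, B cell-like cells with a Socs3 UMI were 2.02%, 0.773%, 4.52%, 4.43%, 0.945% and 1.44% in the CD45 libraries, against 5.51%, 4.17%, 12.2%, 15.8%, 3.02% and 4.23% before thinning. For comparison, plasma cell-like cells of the CD45 libraries had 1.20, 0, 3.61, 9.35, 0 and 2.42 CPM of Socs3, with a UMI in 2.14%, 0%, 6.90%, 25.0%, 0% and 4.64% of 140, 6, 29, 8, 3 and 151 cells. Median depths were 8564 to 24950.5 UMIs in plasma cell-like and 2505 to 4278.5 UMIs in B cell-like cells. The free RNA of those libraries, read from barcodes with too few UMIs to be a cell, held 43.5, 75.2, 90.0, 88.4, 43.4 and 80.3 CPM of Socs3, also highest in the day 3 libraries. Free RNA was estimated at 10.1% to 13.7% of the UMIs of T cell-like cells and 15.4% to 32.0% of those of myeloid-like cells, and was not estimated for B cell-like cells. The estimate takes all B cell marker UMIs in T cell-like cells, and all T cell marker UMIs in myeloid-like cells, as free RNA. It is therefore too high where cells make any of these markers themselves.

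**Figure D4:**
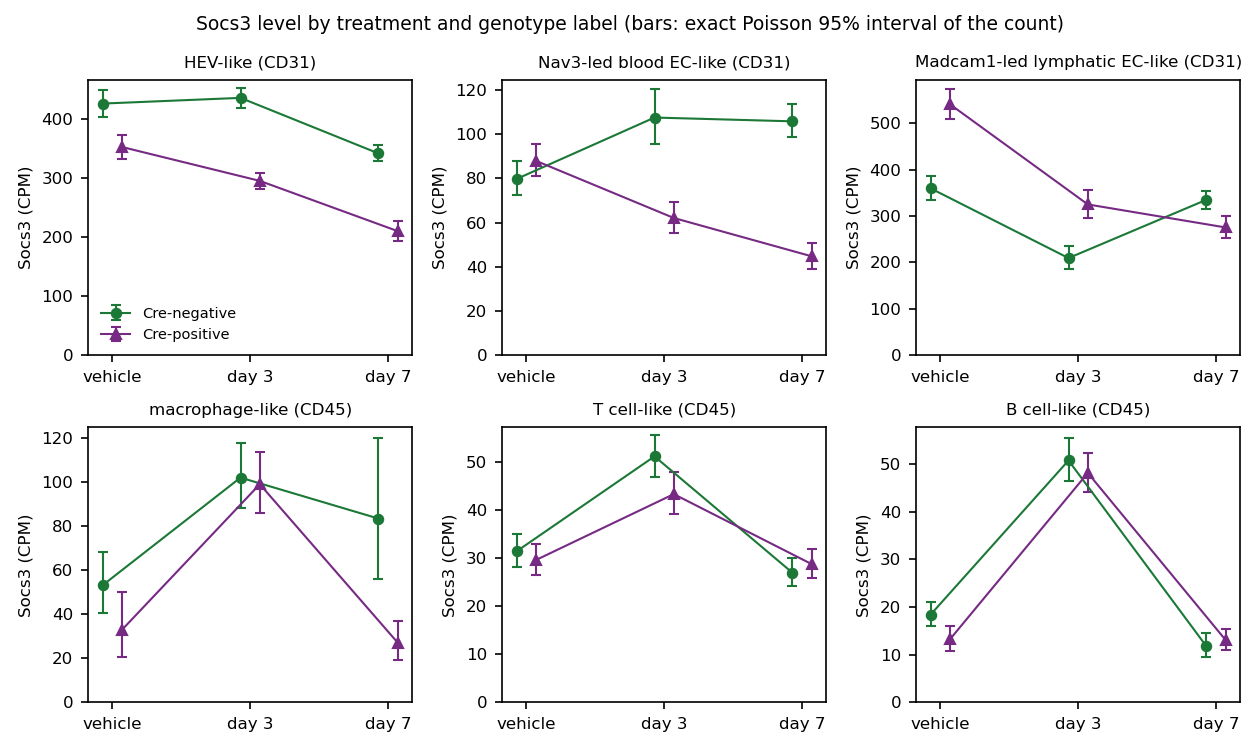
Socs3 level (CPM) by treatment in 6 populations, with Cre-negative as green circles, Cre-positive as purple triangles and exact Poisson 95% intervals as bars. In T cell-like and B cell-like cells both Cre labels peak at day 3, and in HEV-like cells the Cre-positive library is the lower one at each treatment.

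Differences over libraries were tested with edgeR's quasi-likelihood test on UMI sums per library and class, in a model with Cre label and treatment as additive terms and Benjamini-Hochberg adjustment over all genes. A gene is called at an adjusted p below 0.05. In HEV-like cells only the Cre label was tested, and it called 2 of 11545 genes (0.0173%, with 538 at an unadjusted p below 0.05, and 11 called by DESeq2). None of the 6 members that passed the expression filter was called, 1 was at an unadjusted p below 0.05, and DESeq2 called 0. That 1 was Socs3, with a log2 change of -0.55 (SE 0.14, edgeR adjusted p = 0.635) in Cre-positive cells. Over 12 alternative settings the Socs3 change lay between -0.69, reached without the vehicle Cre-positive library, and -0.42. Lif did not pass the filter, and the members' median was -0.11 beside 0.01 over all genes tested. Il6 itself had a log2 change of 0.14 (SE 0.28, edgeR adjusted p = 0.996).

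None of the other listed pathway genes was called in that HEV-like fit either. Of the 14 STAT3 response genes, all tested, 5 were at an unadjusted p below 0.05 and the median log2 change was 0.06. Timp1, a protease inhibitor, was at 34.8, 24.4, 60.2, 43.0, 40.1 and 28.5 CPM, lower in the Cre-positive library of each treatment (log2 -0.53, SE 0.12, edgeR adjusted p = 0.502). Lrg1, a secreted glycoprotein of inflamed vessels, was at 2227, 1952, 2978, 2104, 2754 and 1802 CPM, also lower in each pair (-0.47, SE 0.15, adjusted p = 0.864). Bcl2l1, which blocks cell death, was the other way at 22.1, 41.2, 26.7, 35.1, 25.7 and 35.0 CPM (0.53, SE 0.15, adjusted p = 0.807). Of the 11 dissociation genes, 3 were at an unadjusted p below 0.05, with a median of -0.24. The part of dissociation and of the HEV marker level in the Socs3, Timp1 and Lrg1 values was not tested.

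In other blood endothelial-like cells Il6 was at 7.25, 8.71, 16.99, 13.1, 14.5 and 6.34 CPM. The day 7 Cre-negative library lay between the day 3 libraries. The log2 change of Il6 at day 3 was 0.93 (SE 0.34, edgeR adjusted p = 0.198). That fit called 0 of 14382 genes (0%, with 3060 at an unadjusted p below 0.05, and 490 called by DESeq2) and 0 of the 6 members tested, of which 3 (Il6 higher, Il6st and Osmr lower) were at an unadjusted p below 0.05, with 0 called by DESeq2. The members' median was -0.30 beside -0.01 over all genes. The Cre label called 0 of 14006 genes (0%, 278 at an unadjusted p below 0.05, 13 by DESeq2) and day 7 called 0 of 14382 (0%, 231 and 0). No member was at an unadjusted p below 0.05 in either. Without the day 7 Cre-negative or the day 7 Cre-positive library the day 3 change of Il6 was 0.97 in both fits. These are not separate checks, because the remaining day 7 library is fitted exactly by its own term. Both fits rest on the same vehicle and day 3 libraries, with 1 residual degree of freedom. The change was 1.49 without the vehicle Cre-positive library and 0.47 without the vehicle Cre-negative one.

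Among STAT3 response genes with a mean of 20 CPM or more, the largest day 3 change in these cells was in Lrg1, at 253, 147, 390, 443, 233 and 202 CPM, with both day 3 libraries on top (log2 1.15, SE 0.24, edgeR adjusted p = 0.0915). Zfp36 was at 351, 681, 144, 196, 488 and 239 CPM (-1.54, SE 0.46, adjusted p = 0.148). Of the 14 genes of Il6 induction and mRNA control, 13 were tested, 0 called, and their median was -0.33. Of the 11 dissociation genes 0 were called, with a median of -0.77. The dissociation list summed to 5164, 8804, 3710, 4485, 7029 and 3795 CPM, and its part in the Il6 and Zfp36 values was not tested. The makeup of the class also differed: it held 1244, 1116, 1826, 1116, 592 and 806 capillary-like cells and 1009, 1303, 463, 919, 1489 and 873 Nav3-led cells of 3749, 3581, 3384, 4351, 3295 and 2655, and the part of this in the Il6 values was not tested. Apln-led cycling cells numbered 223, 109, 327, 656, 132 and 148, and the cycling markers of the class summed to 235.4, 98.2, 677.4, 707.8, 104.6 and 242.2 CPM, both highest in the day 3 libraries like Lrg1. Arterial and venous markers were highest there too, at 754.3 and 906.9 CPM against at most 703.5 and at 148.5 and 119 CPM against at most 92.0. The part of these was not tested either.

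In lymphatic endothelial-like cells edgeR called 1 of 12897 genes for the Cre label (0.00775%, with 320 at an unadjusted p below 0.05, and 1 by DESeq2). At day 3 and at day 7 it called 0 of 13309 (0% each, with 631 and 94 at an unadjusted p below 0.05, and 12 and 1 by DESeq2). None of the 7 members was called in these fits by either tool, and only Lif was at an unadjusted p below 0.05, for the Cre label (log2 0.93, SE 0.31, edgeR adjusted p = 1). Il6 had 0, 3.28, 2.15, 14.1, 1.43 and 0.25 CPM there and a day 3 change of 2.44 (SE 1.12, adjusted p = 0.995). The dissociation list summed to 5266, 7218, 2575, 6845, 5365 and 3891 CPM in these cells, and its part in the Il6 values was not tested. In the stromal cells of the CD31 libraries the Cre label called 0 of 5465 genes (0%, 198 at an unadjusted p below 0.05, 2 by DESeq2), day 3 called 0 of 6219 (0%, 451 and 1) and day 7 called 0 of 6219 (0%, 123 and 0). No member was at an unadjusted p below 0.05 in those 3 fits.

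In T cell-like cells of the CD45 libraries the Cre label called 5 of 12169 genes (0.0411%, 1842 at an unadjusted p below 0.05, 68 by DESeq2). Day 3 called 0 of 12544 (0%, 739 and 15) and day 7 called 0 of 12544 (0%, 304 and 3). No member among the 5 tested was called by either tool. At day 3 the members Socs3, Stat3 and Lif were at an unadjusted p below 0.05. Socs3 had a log2 change of 0.59 (SE 0.11, edgeR adjusted p = 0.391), and 0.59 (SE 0.12, adjusted p = 0.547) with free RNA subtracted, and Stat3, at 135, 147, 159, 227, 109 and 157 CPM, had 0.39 (SE 0.12, adjusted p = 0.761). For the Cre label Stat3 had 0.32 (SE 0.10, adjusted p = 0.247). Socs1, another feedback gene of JAK and STAT signalling, was at 40.9, 36.2, 55.8, 58.6, 40.3 and 45.4 CPM, above all others at day 3 (0.53, SE 0.11, adjusted p = 0.474). The cycling markers of this class (57.0, 45.4, 84.6, 70.5, 44.7 and 51.4 CPM) and its NK cell markers (50.1, 41.9, 60.4, 59.5, 45.5 and 53.5 CPM) were also highest in the day 3 libraries. So were pericyte (2.64, 3.63, 10.4, 7.73, 2.63 and 5.44 CPM), arterial (4.15, 3.20, 7.13, 4.42, 1.95 and 3.77 CPM) and venous markers (1.04, 1.73, 2.07, 2.87, 1.10 and 1.59 CPM). T cell markers (4306, 4311, 4123, 3913, 4366 and 4257 CPM) were lowest there. The part of these lists in the Socs3 and Socs1 values was not tested.

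In myeloid-like cells of the CD45 libraries no gene was called for the Cre label among 11281 (0%, 1654 at an unadjusted p below 0.05, 97 by DESeq2), or at day 3 among 11728 (0%, 1202 and 49) or day 7 (0%, 284 and 1). Socs3 was at 29.1, 12.6, 61.9, 66.4, 27.3 and 17.3 CPM, highest at day 3 (log2 1.68, SE 0.29, edgeR adjusted p = 0.287). It was the only member of the 5 tested at an unadjusted p below 0.05 at day 3, and DESeq2 called it (1.72, adjusted p = 0.00995). With free RNA subtracted the Socs3 change was 2.85 (SE 1.19, edgeR adjusted p = 0.865). Il6 was at 4.03, 0.421, 5.20, 14.4, 1.999 and 4.21 CPM (1.84, SE 0.81, edgeR adjusted p = 0.494). Socs1 (0.98, SE 0.26) and Osm (1.39, SE 0.46) also had positive day 3 changes that edgeR did not call, with adjusted p = 0.361 and 0.43. The class mixes clusters in shares that differ by library, and summed neutrophil markers were at 5551, 2846, 1979, 1333, 4813 and 4556 CPM, lowest in both day 3 libraries. Without the granulocyte cluster the day 3 change of Socs3 was 1.74 (SE 0.29). Pericyte markers (5.19, 6.31, 17.8, 12.7, 5.33 and 9.58 CPM) and tip markers (4.03, 2.52, 12.4, 18.7, 2.66 and 3.74 CPM) were highest in both day 3 libraries. Capillary markers (67.1, 72.8, 46.8, 42.6, 86.6 and 50.7 CPM) and T cell markers (209.2, 222.2, 199.4, 207.9, 305.1 and 324.2 CPM) were lowest there. The part of the other clusters and of these lists in the Socs3, Il6, Socs1 and Osm values was not tested.

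With the expression filter and all libraries, stroma gave the only edgeR call of a member. In fibroblast and mural-like cells of the CD45 libraries Il6ra was at 27.0, 42.0, 8.53, 15.6, 25.9 and 33.4 CPM, lowest in both day 3 libraries. Its log2 change at day 3 was -1.50 (SE 0.18, edgeR adjusted p = 0.00818). This fit called 1777 of 15496 genes (11.5%, 918 higher and 859 lower), so 1 call among 7 members is near the share over all genes. Il6 was at 33.0, 90.0, 11.8, 35.2, 31.9 and 31.2 CPM (-1.38, SE 0.37, adjusted p = 0.0593, and -0.44, adjusted p = 0.678, without the Cxcl13-led cluster) and Lif at 4.18, 9.03, 3.06, 2.86, 6.98 and 5.88 CPM (-1.10, SE 0.40, adjusted p = 0.115). Socs3, at 119, 181, 145, 143, 156 and 129 CPM, had -0.01 (SE 0.24). The members' median was -0.35 beside -0.02 over all genes.

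The makeup of this class differed at day 3. Cxcl13-led cells numbered 120, 132, 1039, 743, 151 and 237, Igfbp3-led cells 495, 867, 142, 190, 751 and 1119 and Pi16-led cells 180, 213, 54, 47, 35 and 77. Summed cycling markers (72.1, 13.4, 523.6, 316.2, 30.6 and 68.1 CPM) and pericyte markers (1158, 1021, 2947, 2410, 1679 and 1506 CPM) were highest in the day 3 libraries. So were tip markers (95.7 and 85.9 CPM against at most 83.6) and pan blood endothelial markers (116.0 and 105.3 CPM against at most 95.1). Fibroblast markers were lowest there, at 31579, 24178, 17829, 20348, 23107 and 28894 CPM. The part of these lists was not tested. Within clusters Il6ra did not move alike. It was at 17.2, 32.2, 18.1, 21.98, 25.4 and 29.2 CPM in Igfbp3-led cells, where the day 3 libraries were not the lowest. In Mgp-led cells it was at 17.9, 30.5, 12.5, 12.3, 28.7 and 30.6 CPM and in Cxcl13-led cells at 10.5, 13.1, 5.84, 9.85, 14.2 and 18.9 CPM, lowest at day 3 in both. In Pi16-led cells, where it was highest, Il6ra was at 81.6, 104.5, 58.0, 146.9, 79.3 and 151.7 CPM, and the day 3 libraries lay far apart. Without the Cxcl13-led cluster the Il6ra change was -0.67 (edgeR adjusted p = 0.371) and 0 genes were called. Without the day 3 Cre-negative library it was -1.37 (adjusted p = 0.224) and without the day 3 Cre-positive library -1.62 (adjusted p = 0.0993), against -1.43 (adjusted p = 0.00351) without the vehicle Cre-positive library.

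**Figure D5:**
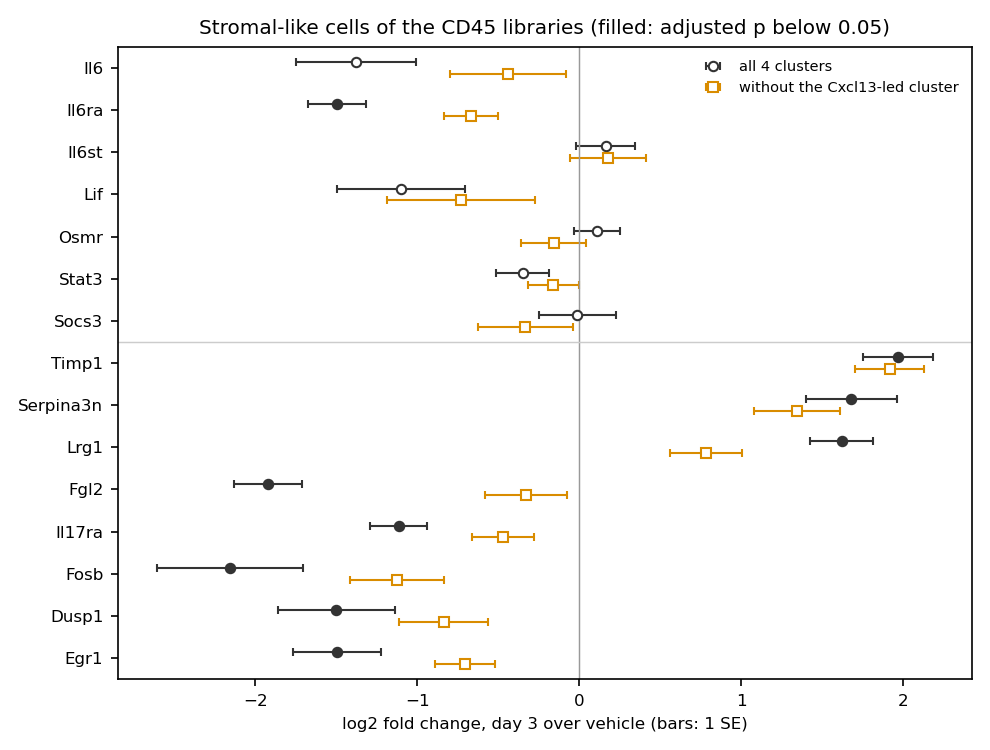
Log2 fold change of day 3 over vehicle in the stromal cells of the CD45 libraries for the 7 members (top) and the other named genes (bottom), with bars of 1 SE, for all 4 clusters (black circles) and without the Cxcl13-led cluster (orange squares). Filled symbols have an adjusted p below 0.05, which Il6ra reaches only with all 4 clusters (-1.50 against -0.67 without).

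Response genes in the same stromal day 3 fit were mixed. Of the 14 STAT3 response genes 3 rose and 1 fell, and the list's median was -0.02, as over all genes. Timp1 rose (45.1, 29.8, 125, 157, 26.9 and 29.7 CPM, log2 1.97, SE 0.22, edgeR adjusted p = 0.00628). Serpina3n, a protease inhibitor of the acute phase, rose by 1.68 (SE 0.28, adjusted p = 0.0194) and Lrg1 by 1.62 (SE 0.19, adjusted p = 0.0081). Fgl2, at 22.8, 28.1, 6.91, 6.10, 9.95 and 10.8 CPM, fell by 1.92 (SE 0.21, adjusted p = 0.00584). Of the 14 genes of Il6 induction and mRNA control, Il17ra, the receptor of interleukin 17, fell by 1.12 (SE 0.18, edgeR adjusted p = 0.0171). The median of these 14 genes was -0.27. They also include Zfp36, so this median has no set direction for Il6. Of the 11 dissociation genes Fosb, Dusp1 and Egr1 fell, with log2 changes of -2.16, -1.50 and -1.50 (edgeR adjusted p = 0.0333, 0.045 and 0.0235). That list had a median of -1.36 and summed to 5841, 10489, 2240, 4772, 8606 and 6147 CPM, and its part in the changes was not tested. These counts, 4 of 14 and 3 of 11, stand beside 11.5% called over all genes, and without the Cxcl13-led cluster no gene was called. None of the named calls held without either day 3 library (0 and 1 genes called), and Dusp1 was also not called with free RNA subtracted (adjusted p = 0.0551) or without doublet removal (0.0503). Without the Cxcl13-led cluster the log2 changes were 1.92 for Timp1 and 1.34 for Serpina3n, close to those with all clusters, against 0.78 for Lrg1, -0.33 for Fgl2, -0.47 for Il17ra, -1.13 for Fosb, -0.84 for Dusp1 and -0.71 for Egr1. None of the other ligands, other receptors, transduction or feedback genes was called. In this fit 4724 genes were at an unadjusted p below 0.05 and DESeq2 called 1850, among them Il6 and Il6ra.

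The remaining stromal contrasts called no member. The Cre label called 0 of 14964 genes (0%, 1408 at an unadjusted p below 0.05, 26 by DESeq2), with 3 members at an unadjusted p below 0.05: Il6 (log2 0.96, SE 0.31), Il6ra (0.57, SE 0.14) and Stat3 (0.39, SE 0.13), each with edgeR adjusted p = 0.527. Of the 11 dissociation genes 2 were at an unadjusted p below 0.05 for the Cre label, with a median of 0.45, and their part in these values was not tested. Day 7 called 35 of 15496 genes (0.226%, 1018 at an unadjusted p below 0.05, 152 by DESeq2), with no member at an unadjusted p below 0.05.

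The genes most like Il6 across 107 sums (19 CD31 populations, each in up to 6 libraries) were taken by Pearson's r of log2(CPM + 1) among 11432 genes. This is a description, since the sums share libraries and depth. They were Ier3 (r = 0.64), Gcnt2 (0.64), Anxa1 (0.63), Cd14 (0.63), Klhl23 (0.61), Cxcl2 (0.61), Antxr1 (0.60), Tnfaip2 (0.60), Nfkbia (0.60) and 1500015L24Rik (0.59). Cxcl2 is a neutrophil attractant, Cd14 a lipopolysaccharide co-receptor and Nfkbia the inhibitor of NF-kB. Those most like Socs3 were Slc16a9 (r = 0.75), Ces2g (0.74), Cemip2 (0.74), Lepr (0.71), the leptin receptor, and C1ra (0.71), a complement protease.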

How the data were processed

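Lymph node cells were measured with a 10x 3′ single-cell kit in 12 libraries, 1 per fraction, treatment and Cre label. The authors deposited UMI counts per gene and barcode. The submitters' processing notes name Cell Ranger 7.0.1 and build mm10, while the file headers name Cell Ranger 4. Cells needed 1000 UMIs, 500 genes and a mitochondrial share of 10% or less. The highest Scrublet scores were removed as doublets, at 0.8% per 1000 cells, because the automatic threshold failed in some libraries. Each fraction was clustered with scanpy 1.11.5 and leidenalg 0.10.2 (2000 variable genes, 30 components, 20 neighbours, resolution 1), and clusters were named from marker lists or else by their leading gene. Levels are CPM of UMI sums with exact Poisson 95% intervals, and log2 ratios of 2 libraries have exact binomial intervals. Where cells were thinned, each was drawn down to 1000 UMIs.

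UMI sums per library and class were tested with edgeR 4.0.16 (quasi-likelihood, TMM scaling, filterByExpr, Benjamini-Hochberg) in R 4.3.3, with Cre label and treatment as additive terms. This leaves 2 residual degrees of freedom, so any interaction counts as error, and with 1 library per combination the p-values measure only the spread between these libraries. The fitting code was tested on simulated data. Alternatives were DESeq2 1.42.0, RLE scaling, no expression filter, at least 2000 UMIs, no doublet removal, subtraction of free RNA, left-out clusters and left-out libraries. The fit of fibroblast and mural-like cells of the CD45 libraries was added after seeing the data. The members and all gene lists were chosen with earlier results of these data known. Named genes are the 7 members, list genes called in a fit, otherwise up to 3 per list and fit with the largest change among those at 20 CPM or more, and the genes most like Il6 and Socs3. Promoter sequences are from RefSeq (GRCm38.p6), where all 7 members matched.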

Additional observations from a re-analysis of the deposited data

Results flagged for a closer look

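In 7 cases a member moved in opposite directions in groups of libraries under the same contrast, by at least 0.5 on the log2 scale on both sides with exact 95% intervals off 0. Each side is 1 library against 1 library, the intervals cover counting error only, and the difference between the sides was not tested. Socs3 in other blood endothelial-like cells had a log2 ratio of day 7 to vehicle of 0.54 in Cre-negative and -0.84 in Cre-positive libraries. The dissociation genes moved the same way, from 5164 to 7029 CPM and from 8804 to 3795 CPM, as did the count of Nav3-led cells, from 1009 to 1489 and from 1303 to 873, and their part was not tested. In lymphatic endothelial-like cells the Cre-positive to Cre-negative ratio of Socs3 was 0.63 at vehicle and 0.65 at day 3 but -0.87 at day 7. There the dissociation genes summed to 5266 and 7218 CPM at vehicle, 2575 and 6845 CPM at day 3 and 5365 and 3891 CPM at day 7 (Cre-negative, then Cre-positive). Madcam1-led cells were 220 of 913 and 265 of 733, 152 of 500 and 133 of 491, and 497 of 1159 and 211 of 1015. The part of either in the Socs3 and Il6 values was not tested. For Il6 in the same cells the ratio was 2.71 at day 3 and -2.53 at day 7, the last on 11 and 2 UMIs.

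In HEV-like cells the Cre-positive to Cre-negative ratio of Il6 was 1.11 (0.49 to 1.76) at vehicle and -0.74 (-1.55 to -0.01) at day 7. Pericyte markers in these cells moved the same way (30.2 to 162.9 CPM at vehicle, 55.4 to 38.7 CPM at day 7, Cre-negative to Cre-positive), as did venous markers (1459 to 1993 and 1495 to 1121 CPM). In myeloid-like cells the Il6 ratio was -3.26 at vehicle, on 14 Cre-negative and 1 Cre-positive UMIs, and 1.47 at day 3. The dissociation genes there summed to 2850 and 5959 CPM at day 3 (4241 and 4260 CPM at vehicle). Lif in fibroblast and mural-like cells of the CD45 libraries had a ratio of day 7 to vehicle of 0.74 in Cre-negative and -0.62 in Cre-positive libraries, and there the dissociation genes went from 5841 to 8606 CPM and from 10489 to 6147 CPM. The part of these measures was not tested. Osmr in the stromal cells of the CD31 libraries had a ratio of day 3 to vehicle of 0.81 in Cre-negative and -1.09 in Cre-positive libraries, on 25 to 53 cells per library. B cell markers in these sums were at 7835 and 120.4 CPM at vehicle and 5.17 and 159.7 CPM at day 3 (Cre-negative, then Cre-positive). Plasma cell markers were at 3446 and 92.1 CPM and at 15.5 and 70.0 CPM, and the part of either list was not tested.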

How the results depend on the processing

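No analysis paired by mouse was possible, because each combination of fraction, treatment and Cre label is 1 library. The groups compared, which lie within a fraction, share no replicate pairs in the labels. The Cre label fits do compare libraries within each treatment, through the treatment term of the model. Counts of members called by edgeR moved as follows. Without the expression filter 1 member (Socs3) was called for the Cre label in HEV-like cells, 1 (Socs3) at day 3 in T cell-like cells, 2 at day 3 in myeloid-like cells and 2 at day 3 in stroma of the CD45 libraries. DESeq2 called 1 and 2 in the last pair of fits, and without the Cxcl13-led cluster the stromal count was 0. Leaving out either library of a treatment takes the error from the same other libraries, with 1 residual degree of freedom. Such pairs are therefore not separate checks. Leaving out 1 library leaves a treatment with 1 sample, which its own term fits exactly. It gave 0 to 3 members in the stromal day 3 fit (3 without vehicle Cre-negative, where 1346 genes were called, 2 without either day 7 library, with 2475 and 2408 genes, 0 without either day 3 library). It gave 0 to 1, always Il6, for the stromal Cre label, for day 3 in other blood endothelial-like cells and for the Cre label and day 3 in lymphatic endothelial-like cells, each time without either day 7 library, where these fits called 48 and 48, 746 and 818, 81 and 72, and 99 and 100 genes, and 0 to 1 for stromal day 7 without day 7 Cre-negative (128 genes). In myeloid-like cells at day 3 it gave 0 to 2, with Il6 and Socs3 called without vehicle Cre-negative among 168 genes. The Cre label change of Il6 in HEV-like cells, 0.14, was -0.19 without either vehicle library and reached 0.40 without either day 7 library. Thinned to 1000 UMIs per cell, the HEV-like Il6 ratio of day 3 to vehicle was 3.00 (0.99 to 6.12, Cre-negative) and 0.66 (-0.27 to 1.69, Cre-positive). The Cre-positive interval then covers 0. Counts over all genes moved more. For the Cre label, day 3 and day 7, edgeR without the filter called 10, 697 and 0 genes in other blood endothelial-like cells, 19, 103 and 15 in lymphatic cells, 59, 178 and 66 in stroma of the CD31 libraries, 149, 54 and 4 in T cell-like cells, 287, 445 and 48 in myeloid-like cells and 15, 2767 and 182 in stroma of the CD45 libraries, and 146 for the Cre label in HEV-like cells. Without doublet removal 283 genes were called at day 3 in other blood endothelial-like cells. Leave-outs gave up to 818 there (without day 7 Cre-positive) and 0 to 3083 at day 3 in stroma of the CD45 libraries (3083 without vehicle Cre-positive). With free RNA subtracted the stromal day 7 count was 0, against 35. The causes were not tested. Low counts limit Lif and Il6ra in HEV-like cells.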
